A study of Mus musculus with 32 samples.

Results

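The cytosolic ribosomal protein genes encode the protein parts of the ribosome outside mitochondria. They were chosen by gene symbol alone: every RpsN or RplN symbol, with the paralog endings, together with Rpsa, Rplp0, Rplp1 and Rplp2, and without pseudogenes and the S6 kinases. The array held 85 such genes among 20660 named genes, on 175 of 27235 named probes. Of these, 82 genes passed the filter on low signal and were tested, 33 of the small subunit and 49 of the large subunit. The other 3, Rpl3l, Rpl10l and Rpl39l, are paralogs best known from muscle or testis.

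Total RNA was measured on 32 one-colour arrays from 4 groups of mouse samples on the 129+Ter/SvJcl background. The superior mesenteric ganglion, a sympathetic ganglion of the abdomen, was sampled at an age of 3 weeks from wild type animals (n = 8) and from animals of the genotype TH-MYCN hemizygote (TH-MYCN+/-; n = 8). In TH-MYCN mice the tyrosine hydroxylase promoter drives human MYCN in catecholaminergic cells, so a ganglion holds both transgenic neuroblasts or neurons and cells of other types. Spheres are floating cell clusters grown from TH-MYCN hemizygote mice of the same age. They were taken after 8 days of primary culture (8 cultures) or after 5 passages (4 cultures, each on 2 arrays whose values were averaged). The series treats each ganglion and culture as a biological replicate. It does not state which ganglion, if any, gave rise to which culture.

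A ribosome has a small subunit, which reads the messenger RNA, and a large subunit, which joins the amino acids. Ribosomal proteins are made in matched amounts, and their messengers carry a run of pyrimidines at the very start (the TOP motif), through which mTOR signalling controls their translation. MYC family proteins, MYCN among them, are known to raise ribosome production in growing cells, and high MYCN defines an aggressive form of neuroblastoma. Some subunits have paralogs whose levels differ between tissues.

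The starts of member genes were looked up in the RefSeq promoter table of mouse build GRCm38.p6, which holds windows from 250 bases before to 50 bases after each annotated start. It matched 64 of the 85 members, with 76 windows. The following sequences run from 50 bases before the start through the first 20 transcribed bases. Rps6, Rps27, Rplp2 and Rpl28 are examples whose first 5 transcribed bases are all C or T, which held for 17 of the 64 matched members. They do not stand for all members. Rpl22 is shown beside its paralog Rpl22l1, with Rps27l and Rpl7l1 as further paralogs. The downstream start of Rps27l, with a longest run of 4 bases, is not shown. Capitals mark the longest run of C and T within 20 bases either side of the annotated start. The first transcribed base follows the 50 bases before the start.
Rps6 (chr4:86857348-86857417, minus strand): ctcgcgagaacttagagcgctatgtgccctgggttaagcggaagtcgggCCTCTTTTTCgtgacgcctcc
Rps27 (chr3:90213629-90213698, minus strand): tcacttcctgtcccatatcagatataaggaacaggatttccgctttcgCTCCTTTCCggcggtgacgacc
Rplp2 (chr7:141447601-141447670, plus strand): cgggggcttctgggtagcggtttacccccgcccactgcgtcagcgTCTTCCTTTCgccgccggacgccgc
Rpl28 (chr7:4792915-4792984, plus strand): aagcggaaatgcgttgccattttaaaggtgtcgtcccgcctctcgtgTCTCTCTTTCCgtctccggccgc
Rpl22l1 (chr3:28805458-28805527, plus strand): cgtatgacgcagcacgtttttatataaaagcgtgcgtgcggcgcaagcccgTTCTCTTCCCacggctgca
Rpl22, upstream start (chr4:152324386-152324455, plus strand): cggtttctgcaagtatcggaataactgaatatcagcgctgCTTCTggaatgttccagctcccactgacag
Rpl22, downstream start (chr4:152325676-152325745, plus strand): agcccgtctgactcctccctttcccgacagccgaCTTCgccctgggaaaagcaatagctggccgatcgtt
Rps27l, upstream start (chr9:66946036-66946105, plus strand): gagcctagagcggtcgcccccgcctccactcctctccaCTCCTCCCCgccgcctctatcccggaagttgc
Rpl7l1 (chr17:46782637-46782706, minus strand): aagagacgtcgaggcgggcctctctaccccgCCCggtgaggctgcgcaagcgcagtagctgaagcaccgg
In Rps6, Rps27, Rplp2 and Rpl28 a run of 9 to 11 pyrimidines crossed the annotated start. Rpl22l1 had a run of 10 that opened 1 base after its start, while the run was 5 and 4 bases long at the annotated starts of Rpl22 and 3 bases long in Rpl7l1.

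The first 5 transcribed bases were all C or T in 17 of the 64 matched members (26.6%), against 5.28% of the 27025 genes in the table and 1 of 69 mitochondrial ribosomal protein genes (1.45%). A run of at least 8 pyrimidines within 20 bases of the start was present in 31 members (48.4%), in 18.4% of all genes and in 18.8% of the mitochondrial set. A gene with several windows was counted if any of them qualified. The word CCGGAAG, the core recognised by ETS factors such as GABP, was present on either strand in the windows of 26 of 64 members (40.6%). Its share was 9.93% of all genes in the table and 37.7% of the mitochondrial ribosomal protein genes. CACGTG, the E-box bound by MYC and MAX, was in the windows of 6 of 64 members (9.38%) and of 8.09% of all genes. GGGCGG, the GC box bound by SP1, was in 39 of 64 members (60.9%) and in 38.2% of all genes. TATAAA was found in 8 of 64 members (12.5%) and in 15.7% of all genes. These words were searched on both strands. The GC box can share bases with the ends of CCGGAAG and CACGTG, and a match describes letters in the window, not a bound factor. Member windows had a median GC content of 57.8%, against 52.7% for all windows.

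The median of the 82 tested members stood higher in every sphere than in any ganglion, though single members did not all follow. Values are log2 processed signal minus the 75th percentile of the array, called scaled log2 signal here. They compare samples for 1 probe and not 1 gene with another. In each sample the median over the 82 members was taken. It ran from 6.56 to 7.18 with a median of 6.66 in wild-type ganglia (n = 8), and from 6.50 to 7.34 with a median of 7.04 in TH-MYCN ganglia (n = 8). Primary spheres gave 8.02 to 8.26 with a median of 8.21 (n = 8), and the 4 passaged cultures gave 8.05, 8.18, 8.25 and 8.25. The 2 ganglion groups overlapped, the 2 sphere groups overlapped, and no ganglion reached the lowest sphere.

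**Figure D1:**
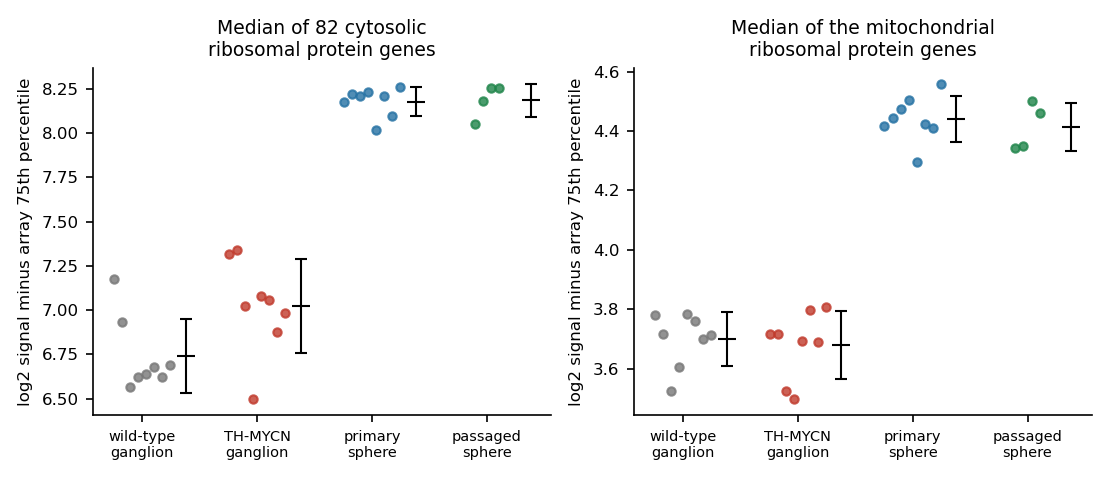
Each point is 1 sample, and the black bar beside each group is the mean with its SD; the y axis is scaled log2 signal (log2 processed signal minus the 75th percentile of the array). Cytosolic members (left) lay at 6.50 to 7.34 in all ganglia and at 8.02 to 8.26 in all spheres; mitochondrial ribosomal protein genes (right) lay at 3.50 to 3.81 and at 4.30 to 4.56.

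In the ganglia, single samples were high or low for most members. Wild-type ganglion 1 was the highest wild-type sample for 72 of the 81 members measured in every ganglion. TH-MYCN ganglion 4 was the lowest TH-MYCN sample for 79 of 81. TH-MYCN ganglia 1 and 2 were the highest for 29 and 42 members. Among passaged cultures, culture 1 was the lowest for 61 of 82. In primary spheres this was more divided: cultures 8 and 2 were the highest for 43 and 32 of 82 members, and cultures 5 and 1 the lowest for 44 and 16. The SD between samples of a group had a median over members of 0.22 in wild-type ganglia and 0.28 in TH-MYCN ganglia. It was 0.11 in primary spheres and 0.13 in passaged spheres, so tissue samples spread more than cultures did. The 75th percentile subtracted from every value was itself extreme in some of these samples. Wild-type ganglion 1 had the lowest of its group, 466 units against 646 to 878. TH-MYCN ganglion 4 had the highest of its group, 1200 units against 743 to 1145. Passaged culture 1 had the highest of the passaged cultures, 474 units against 309 to 459. The part of this scale factor in the high and low samples was not tested.

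TH-MYCN ganglion 4 also had the lowest summed signal of the dividing cell markers (Mki67, Top2a, Ccnb1 and Ube2c) in its group, at 4.56, against 5.67 to 6.61 in the other TH-MYCN ganglia. Wild-type ganglia had -1.02 to 0.50 and primary spheres 7.34 to 7.57. A further marker, Cdk1, was left out of this sum because a single Cdk1 probe read 6.0 in wild-type ganglion 1, where the other dividing cell markers were as low as in its group. Over the 8 samples of a group, the correlation of this sum with the member median differed between groups. It was 0.84 in TH-MYCN ganglia (rank correlation 0.57), -0.47 in wild-type ganglia (-0.55) and 0.12 in primary spheres (0.10). TH-MYCN ganglion 8 had a high sum, 6.58, and a member median of 6.98. The part of cell division in the low members of TH-MYCN ganglion 4 was not tested.

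The comparison of TH-MYCN with wild-type ganglia asks how the ganglion of transgenic animals differs from the normal one. Relative to the whole array, the ribosomal protein genes shifted upwards by a small amount. Of 82 members, 30 (36.6%) were higher in TH-MYCN ganglia at an adjusted p under 0.05 (limma, Benjamini-Hochberg over all 15845 tested genes), where 21.8% of all genes were called higher. A single member was lower (1.22%), where 43.8% of all genes were. The median log2 difference was 0.22 over members and -0.22 over all tested genes, and 74 of 82 members had a positive difference. The small subunit had 16 of 33 members called higher with a median of 0.32, and the large subunit 14 of 49 with a median of 0.21. In bulk tissue, more cells of a type and more RNA per cell cannot be told apart.

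**Figure D2:**
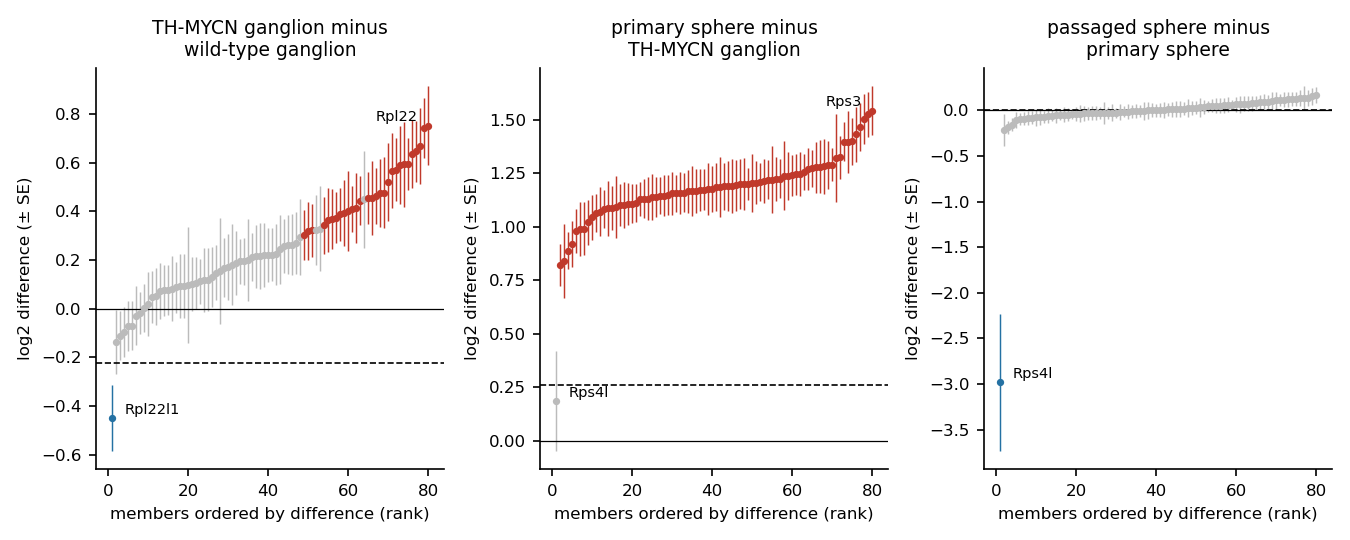
Log2 differences of the tested members reported here with their SE, ordered by size within each comparison; red marks members called higher, blue members called lower and grey members not called (limma, adjusted p under 0.05), and the dashed line is the median of all tested genes. Rpl22l1 at -0.45 is the only member called lower in TH-MYCN ganglia and Rpl22 stands at 0.75; primary spheres differ from TH-MYCN ganglia by up to 1.54 (Rps3), with Rps4l at 0.19 not called, and passaged from primary spheres by little except Rps4l at -2.98.

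Small subunit genes are given first. Rps3, which lies near the entry of the messenger RNA, read 4.54 to 5.06 (median 4.74) in wild-type and 5.01 to 5.83 (median 5.58) in TH-MYCN ganglia. Its difference was 0.74 ± 0.12 (limma adjusted p = 8.85e-05), while a dim second probe of Rps3 gave 0.12 (adjusted p = 0.484) in the fit over probes. Rps19, needed for maturation of the small subunit and the gene most often mutated in Diamond-Blackfan anaemia, read 4.62 to 5.46 (median 4.87) and 4.98 to 6.15 (median 5.65). It rose by 0.67 ± 0.16 (adjusted p = 0.00138), with overlapping groups. Rps6, the substrate of the S6 kinases, rose by 0.34 ± 0.12 (adjusted p = 0.0175). Rps2, also of the small subunit, rose by 0.59 ± 0.11 (adjusted p = 0.000195). Rpsa, which is also known as the laminin receptor precursor, had a difference of 0.10 ± 0.11 (adjusted p = 0.42) with the brightest of its 4 probes. The other Rpsa probes gave 0.45, 0.79 and 0.33 (adjusted p = 0.00686, 0.000348 and 0.0199 over probes), and the mean of its probes 0.42 (adjusted p = 0.00424). Rps27 had a difference of 0.09 ± 0.13 (adjusted p = 0.547).

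Among large subunit genes, Rpl22 rose most. It read 5.39 to 6.19 (median 5.68) in wild-type and 5.65 to 7.00 (median 6.46) in TH-MYCN ganglia, a difference of 0.75 ± 0.16 (limma adjusted p = 0.000732). Its second probe gave 0.67 in the same direction. The 2 groups overlapped only through TH-MYCN ganglion 4, at 5.65, and the higher wild-type ganglia. Rpl28 rose by 0.65 ± 0.13 (adjusted p = 0.000353). Rpl5 and Rpl11 are known to bind 5S ribosomal RNA and, when free of the ribosome, to inhibit Mdm2, the regulator of p53. Rpl5 rose by 0.59 ± 0.16 (adjusted p = 0.00399), and Rpl11 had a difference of 0.05 ± 0.11 (adjusted p = 0.701). Whether Rpl5 and Rpl11 differ in their response was not tested. Rplp0, Rplp1 and Rplp2 form the stalk that brings elongation factors to the ribosome. Of these Rplp2 rose, by 0.30 ± 0.10 (adjusted p = 0.0153), while Rplp0 (0.20, adjusted p = 0.0738) and Rplp1 (-0.07, adjusted p = 0.548) were not called. Some of the 29 other settings called Rplp0, among them quantile normalization (0.35, adjusted p = 5.26e-05), the median gene set to no difference (0.42, adjusted p = 0.0017) and the mean of its probes (0.37, adjusted p = 0.00515). Leaving out 1 ganglion at a time led to a call in 2 of 16 fits.

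Rpl22l1, the paralog of Rpl22, was the member that fell. It read 6.60 to 7.49 (median 6.73) in wild-type ganglia and 6.07 to 6.63 (median 6.38) in 7 TH-MYCN ganglia; the spot of the eighth had been marked as an outlier by the scanner software. The groups overlapped narrowly, between 6.60 and 6.63. The difference was -0.45 ± 0.14 (limma adjusted p = 0.00906). It lay between -0.49 and -0.35 when each ganglion was left out in turn, with adjusted p of 0.00756 to 0.0223. Without wild-type ganglion 1, the highest at 7.49, it was -0.35. Against the median gene, set to no difference, Rpl22l1 stood at -0.23 and was no longer called (adjusted p = 0.175). With arrays left unscaled it stood at -0.0083 and was not called (limma adjusted p = 0.974), so its fall depended on the scale.

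The count of 30 members rested on how arrays were put on one scale and on which samples entered. Setting the median gene to no difference gave 63 members higher and 0 lower, and quantile normalization 56 higher. Arrays left unscaled gave 79 higher with a median difference of 0.69, and 0.25 for all genes. Of all genes, 32.4%, 23.7% and 35.9% were higher in these fits, in that order. The share of all calls that were higher went from 33.2% to 54.3%, 36.4% and 87.6%. Both genotypes shared slides 1 and 2, with 4 ganglia of each on each slide. Within slide 1 alone 5 members were higher (median 0.15), where 17.5% of all genes were higher (median -0.21). Within slide 2 alone 50 members were higher (median 0.32), where 19.4% of all genes were. With slide as a block 33 members and 23.2% of all genes were higher. The share of members called higher within slide 1 was thus below that of all genes, the reverse of the fit over both slides. Without TH-MYCN ganglion 4, the ganglion with the lowest members, 50 were higher with a median of 0.31, where 22.9% of all genes were higher. Without wild-type ganglion 1, the ganglion highest for most members in its group, 44 were higher with a median of 0.29, where 21.4% of all genes were higher. Leaving out any other ganglion gave 28 to 34.

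**Figure D3:**
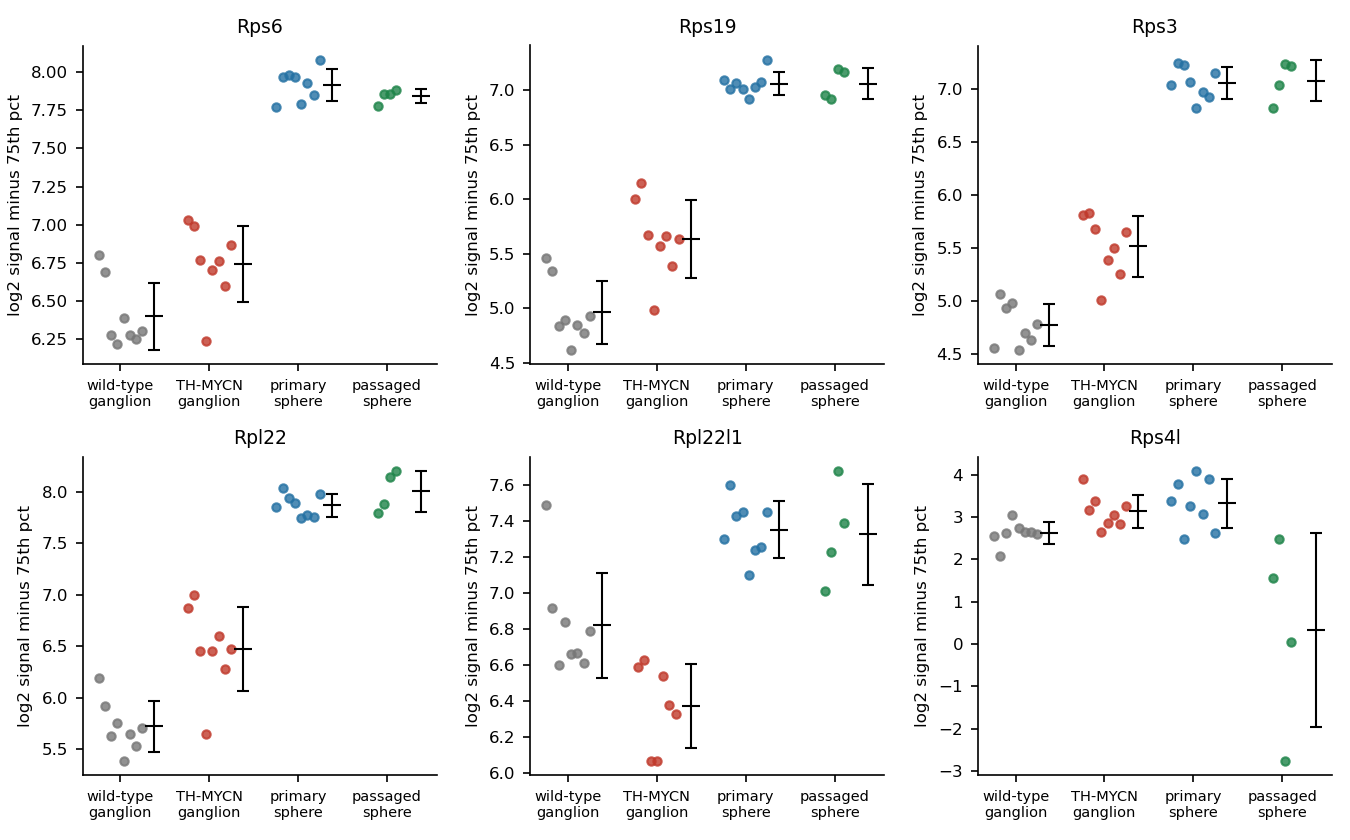
Scaled log2 signal of 6 members in each sample, with the mean and SD of each group as a black bar; y axes differ between panels. Rps6, Rps19, Rps3 and Rpl22 rise in 2 steps, Rpl22l1 is lowest in TH-MYCN ganglia, and Rps4l scatters from -2.75 to 2.49 over the 4 passaged cultures.

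Primary spheres against TH-MYCN ganglia asks how spheres after 8 days of culture differ from ganglia of the same genotype and age, as separate samples. Nearly every ribosomal protein gene was higher in spheres, by about the same amount. At an adjusted p under 0.05, 81 of 82 members (98.8%) were higher and 0 were lower (limma, Benjamini-Hochberg over all 15650 tested genes), where 49.9% of all genes were called higher and 33.2% lower. At an unadjusted p under 0.05, 0 members and 33.5% of all genes were lower. At least a 2-fold rise was called in 73 members (89.0%), against 15.7% of all genes. The groups did not overlap in 79 members, against 34.1% of all genes that did not overlap upwards. The median difference was 1.18 over members, with the middle of the members between 1.11 and 1.24, and 0.26 over all tested genes. Small subunit (1.17) and large subunit (1.19) medians were alike.

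Rps3 had the largest difference of the 82 members. It read 5.01 to 5.83 (median 5.58) in TH-MYCN ganglia and 6.82 to 7.25 (median 7.05) in primary spheres, without overlap, a difference of 1.54 ± 0.11 (2.91-fold; limma adjusted p = 1.88e-09). Rps2 (log2 difference 1.52), Rps18 (1.50), Rps27l (1.47) and Rps19 (1.43) followed. Rps18 lies in the head of the small subunit, and Rps27l is a paralog of Rps27 known as a target of p53. Rps6 rose by 1.17 ± 0.10, from 6.24 to 7.03 (median 6.76) to 7.77 to 8.08 (median 7.95).

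Large subunit genes rose within a narrow band. Rplp0, Rplp1 and Rplp2 of the stalk rose by 1.14, 1.11 and 1.15. Rpl5 and Rpl11 rose by 1.09 and 1.27, and Rpl3, which lines the peptidyl transferase centre, by 1.21 ± 0.09. Rpl11 read 7.24 to 8.03 (median 7.88) in TH-MYCN ganglia and 9.00 to 9.26 (median 9.04) in primary spheres. Rpl10, which joins the large subunit late, rose by 0.89 ± 0.09, and Rpl39, at the exit tunnel, by 0.99 ± 0.12.

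A few members departed from the common rise. Rps21 rose by 0.84 (limma adjusted p = 0.000283), and its groups overlapped. Its values split by slide. TH-MYCN ganglia read 5.45 to 6.12 on slide 1 and 4.99 to 5.14 on slide 2. Primary spheres read 6.39 to 6.60 on slide 3 and 6.05 to 6.23 on slide 4. The overlap was only between ganglia of slide 1 and spheres of slide 4. Rps4l had a difference of 0.19 ± 0.23 (adjusted p = 0.465) and was the only member not called. It read 2.65 to 3.89 in TH-MYCN ganglia and 2.49 to 4.09 in primary spheres.

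How much of this rise is seen depends on the scale. Sphere arrays were dimmer: their 75th percentile of signal was 415 to 500 units in primary spheres and 743 to 1200 in TH-MYCN ganglia. Without scaling, the median gene stood at -0.81, the median member at 0.10, and 10 members were called higher and 2 lower. Of all genes, 5.41% were higher and 73.5% lower in that fit. Quantile normalization gives all arrays the same distribution of signals. It put the median member at 0.23 and the median gene at 0.08, a gap of 0.15 where the scaled values had 0.92. There 65 members were higher and 1 lower, against 42.7% and 37.8% of all genes. The share of all calls that were higher was 60.0% scaled, 53.0% after quantile normalization, 48.3% with the median gene set to no difference and 6.85% unscaled. TH-MYCN ganglia were on slides 1 and 2 and spheres on slides 3 and 4, so slide and group cannot be told apart here. With slide as a random block 81 members were higher, and the primary spheres of slide 3 alone and of slide 4 alone gave 81 and 80. Of all genes, 47.6%, 47.2% and 46.2% were higher in these fits.

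Markers of other cell types moved with this comparison. All 6 Schwann and satellite glia markers, all 6 macrophage markers, all 6 fibroblast markers, all 5 smooth muscle markers and all 4 erythroid markers fell in primary spheres, as did 4 of 6 sympathetic neuron, 4 of 5 endothelial and 2 of 3 lymphocyte markers. All 5 dividing cell markers rose, with 1 endothelial and 1 lymphocyte marker. The summed fibroblast signal went from 7.10 to 7.44 in TH-MYCN ganglia to -3.93 to 0.33 in primary spheres, and the macrophage sum from 4.69 to 5.62 to -0.43 to 0.41. Sympathetic neuron markers (Th, Dbh, Slc6a2, Prph, Chrna3 and Snap25) were well above background on all primary sphere arrays, with a summed signal of 8.26 to 8.59 against 9.07 to 9.90 in TH-MYCN ganglia. The endothelial and lymphocyte sums did not fall. They were 1.43 to 2.29 and -1.87 to -0.85 in TH-MYCN ganglia, and 1.98 to 2.97 and -1.13 to 0.05 in primary spheres. On no primary sphere array were 1 of 6 fibroblast, 2 of 6 macrophage, 1 of 6 glial and 2 of 4 erythroid markers well above background. The same held for 2 of 5 endothelial, 1 of 5 smooth muscle and 2 of 3 lymphocyte markers. In the comparison of ganglia, the TH-MYCN group had all 6 macrophage and all 5 dividing cell markers higher. It had all 6 neuron, all 6 glial, 5 of 6 fibroblast, 4 of 5 endothelial, 4 of 5 smooth muscle and all 3 lymphocyte markers lower. The part of the change in cell types in the ribosomal protein differences was not tested.

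Passaged against primary spheres asks what 5 passages change. For ribosomal protein genes almost nothing was detected. By limma with Benjamini-Hochberg adjustment over 14242 genes, 0 of 82 members were higher and 1 was lower (1.22%), against 4.33% and 6.96% of all genes. At an unadjusted p under 0.05, 0 members were higher and 2 were lower, Rps4l and Rpl7l1, against 12.9% and 15.6% of all genes. The median difference was 0.00 over members and over all genes, and 41 of 82 members were positive. Apart from Rps4l the differences ran from -0.21 (Rpl13a) to 0.17 (Rps12). The Rpl13a value leans on primary sphere 6, which read 8.84. The other primary spheres read 7.68 to 7.96 and the passaged cultures 7.65 to 7.87. A p above the threshold does not show equal levels, and only 4 cultures were passaged.

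Single members were as close. Rps6 read 7.78, 7.86, 7.86 and 7.88 in the passaged cultures, inside the primary range of 7.77 to 8.08. Rps19 read 6.96, 6.92, 7.20 and 7.17 against 6.92 to 7.28, a difference of -0.00 ± 0.08. The groups overlapped for both genes. Rpsa had the widest of the passaged ranges among them, at 8.70, 8.78, 9.22 and 9.07 against 8.72 to 8.90 in primary spheres (0.15 ± 0.09, limma adjusted p = 0.287). Rpl22 read 7.79, 7.88, 8.14 and 8.20 against 7.74 to 8.04 (0.13 ± 0.09, adjusted p = 0.356).

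Rps4l, a paralog of the X-linked Rps4x, was the exception. Its scaled log2 signal was 1.56, 2.49, -2.75 and 0.06 in the 4 passaged cultures, against 2.49 to 4.09 (median 3.32) in primary spheres, 2.09 to 3.05 in wild-type and 2.65 to 3.89 in TH-MYCN ganglia. The 2 arrays of a culture, on different slides, read almost the same: 1.61 and 1.52, 2.47 and 2.51, -2.65 and -2.84, 0.04 and 0.09. The spread is thus between cultures and not between arrays. The probe was well above background on all 32 arrays. The difference was -2.98 ± 0.75 (limma adjusted p = 0.0264). The groups did not overlap (4.92% of all genes did not overlap downwards), but culture 2 and the lowest primary sphere both round to 2.49.

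The call on Rps4l depended on the samples in the fit. Without passaged culture 4 the difference was -2.89 with an adjusted p of 0.08, and over the 4 fits without 1 culture it ran from -3.70 to -1.95. Against the primary spheres of slide 3 alone or slide 4 alone it was -2.89 (adjusted p = 0.113) and -3.08 (adjusted p = 0.09), and within slide 3 and slide 4 it was -2.86 (adjusted p = 0.133) and -3.10 (adjusted p = 0.104). Rps4x read 6.76, 6.91, 7.00 and 6.99 in the same cultures, against 6.77 to 7.28 in primary spheres. Of all 82 members Rps4l had the largest SD in both sphere groups, 2.29 in passaged and 0.58 in primary spheres, and the next in passaged spheres was Rpl22l1 at 0.28.

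Paralogs were set against their usual copy within each sample, and the differences between groups were tested by exact permutation over samples (two-sided), with Benjamini-Hochberg adjustment over the 12 tests. Such a ratio cancels a scale factor common to the array and shows unequal change of 2 probes, not their relative abundance. The pairs tested were 4, since Rpl3l, Rpl10l and Rpl39l were well above background on 1 of 32 arrays each.

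Rpl22l1 against Rpl22 gave the clearest pattern. The log2 ratio was 1.10 ± 0.12 (SD, n = 8) in wild-type ganglia, -0.10 ± 0.30 (n = 7) in TH-MYCN ganglia, -0.51 ± 0.06 (n = 8) in primary spheres and -0.68 ± 0.16 (n = 4) in passaged spheres. From wild-type to TH-MYCN ganglia it changed by -1.20 ± 0.12 (SE), with no overlap (exact p = 0.000155, the smallest this design can give, adjusted p = 0.000932). From TH-MYCN ganglia to primary spheres it changed by -0.42 ± 0.11 (exact adjusted p = 0.000932), although both genes rose there. From primary to passaged spheres the change was -0.16 ± 0.08 (exact adjusted p = 0.045); without passaged culture 1 it was -0.13 and without culture 4 it was -0.12, and neither of these passed. A second, dimmer Rpl22 probe differed by -0.07 on passage where the probe used differed by 0.13. Rpl22 is known from mice lacking it to hold down Rpl22l1; these data give only the levels of both.

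**Figure D4:**
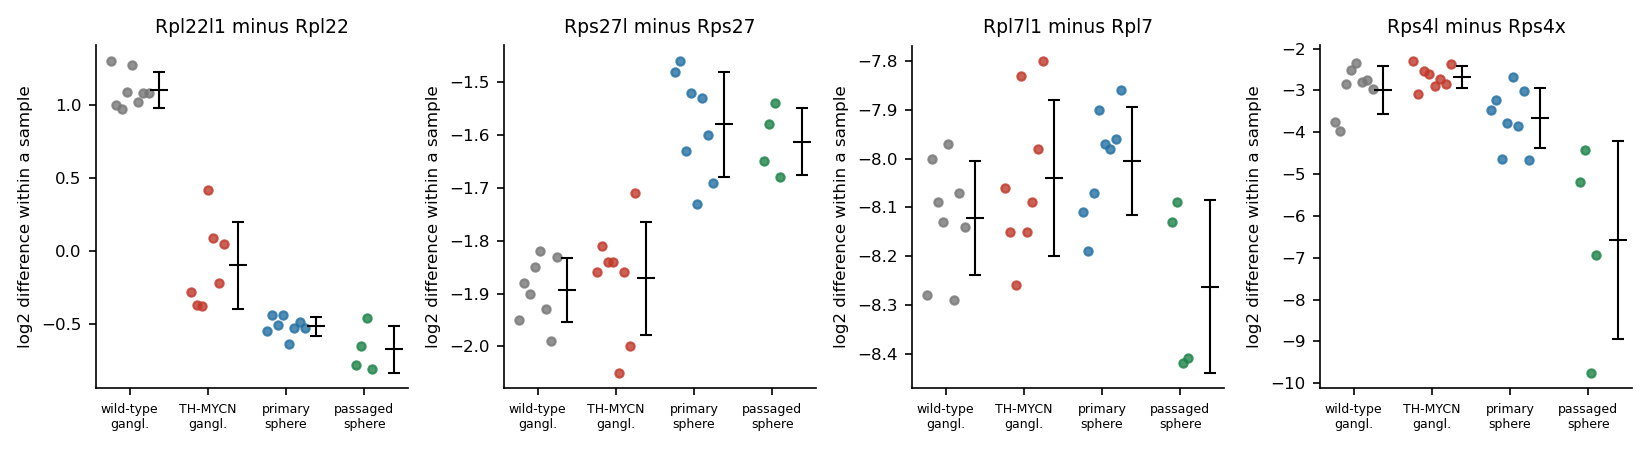
Log2 signal of a paralog minus that of its usual copy in each sample, with the mean and SD of each group as a black bar; only changes between groups can be read, not which gene is more abundant. Rpl22l1 minus Rpl22 falls from 1.10 in wild-type ganglia to -0.51 in primary spheres, Rps27l minus Rps27 steps up in spheres, and Rps4l minus Rps4x spreads in passaged spheres.

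Rps27l minus Rps27 differed by 0.03 ± 0.04 between the ganglion groups (exact adjusted p = 0.628). From TH-MYCN ganglia to primary spheres it rose by 0.29 ± 0.05 (exact adjusted p = 0.00124), since Rps27l rose by 1.47 and Rps27 by 1.18, and from primary to passaged spheres it differed by -0.03 ± 0.05 (adjusted p = 0.628). Rpl7l1, a nucleolar relative of Rpl7 thought to act in ribosome assembly, read -1.31 to -0.79 in wild-type ganglia, -1.22 to -0.64 in TH-MYCN ganglia and 0.22 to 0.62 in primary spheres. In passaged cultures it read 0.13, 0.26, 0.20 and 0.15. Against Rpl7 it changed by -0.26 ± 0.10 on passage (exact adjusted p = 0.0242), and the changes in the other comparisons were 0.08 and 0.03 (adjusted p = 0.35 and 0.63). Quantile normalization put the change of Rpl7l1 against Rpl7 from TH-MYCN ganglia to primary spheres at 1.01 in place of 0.03. Rps4l against Rps4x changed by -0.99 ± 0.27 from TH-MYCN ganglia to primary spheres (exact adjusted p = 0.00606) and by -2.91 ± 1.21 on passage (adjusted p = 0.0145). The first of these was -0.49 after quantile normalization and no longer passed.

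Bright and dim probes gave different sizes. After the filter, 170 member probes for 82 genes remained in each comparison, 51 genes had several, and no gene had probes called in opposite directions. Between the ganglion groups the 43 dimmest probes had a median difference of 0.41 and the 43 brightest 0.12. Between TH-MYCN ganglia and primary spheres these were 1.31 and 1.15, and 169 of 170 probes were called higher. On passage they were -0.09 and 0.07. The probe of highest mean stands for a gene here, so the reported differences of the bright members lie towards the low end in the first 2 comparisons. No spot was marked as saturated, and the part of probe brightness in these sizes was not tested.

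**Figure D5:**
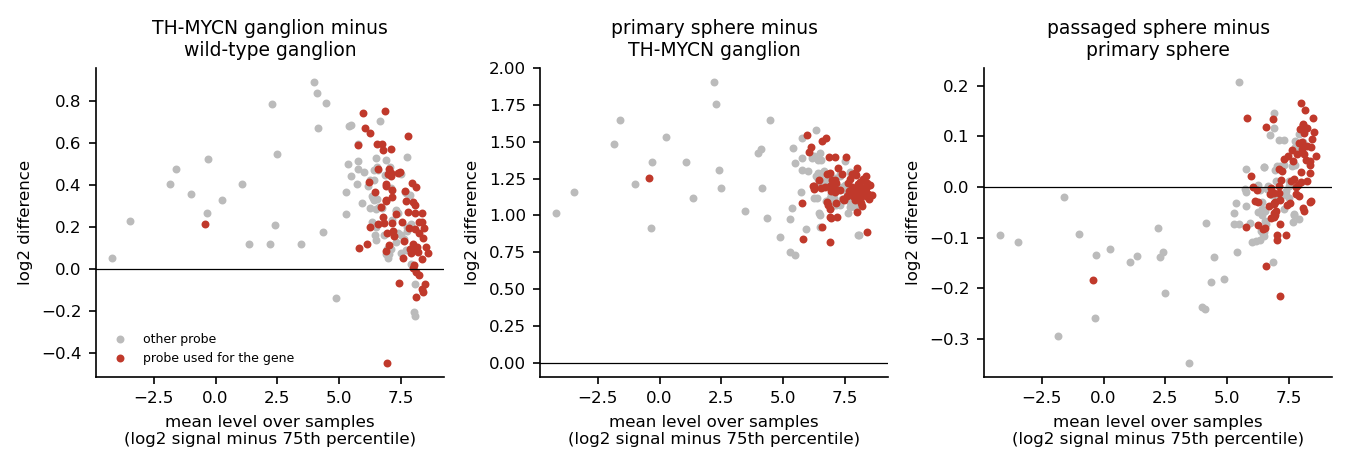
Log2 difference of each member probe against its mean scaled log2 signal over samples, Rps4l and members not reported here left out; red points are the probes that stand for their genes and grey points the other probes. Differences between the ganglion groups and between primary spheres and TH-MYCN ganglia are larger at dim probes (medians of the 43 dimmest and 43 brightest 0.41 against 0.12 and 1.31 against 1.15), and on passage dim probes lie at -0.09 and bright ones at 0.07.

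Other parts of the protein synthesis machinery are given for comparison, without a test of the difference. Of 78 mitochondrial ribosomal protein genes, 4 were higher and 27 lower in TH-MYCN ganglia, with a median of -0.09; over all genes 21.8% were higher and 43.8% lower. In primary spheres 76 of 77 were higher than in TH-MYCN ganglia, with a median of 0.88, where 49.9% of all genes were higher, and on passage 0 of 77 were called in either direction. Of 12 elongation and associated genes, 6 were higher in TH-MYCN ganglia (Npm1, Pabpc1, Eef1b2, Rack1, Eef1g and Btf3) and 1 was lower, Eef1a2, the elongation factor form of neurons and muscle (-0.78 ± 0.27, limma adjusted p = 0.0171). In primary spheres 11 of 12 were higher and Eef1a2 again lower (-0.68 ± 0.21, adjusted p = 0.00604).

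Among 27 initiation factors, 6 were higher and 1 lower in TH-MYCN ganglia, 25 higher and 1 lower in primary spheres, and 2 higher on passage (Eif1 and Eif5). The shares of all genes called higher in these comparisons were 21.8%, 49.9% and 4.33%, so the share of initiation factors higher in TH-MYCN ganglia lay near that of all genes. Eif5b, which joins the subunits, was the one that fell both times, by 0.41 and then by 0.50. Of 19 ribosome assembly genes, 13 were higher and 2 lower in TH-MYCN ganglia with a median of 0.34, and 18 higher and 1 lower in primary spheres with a median of 1.26. Fibrillarin (Fbl), the methyltransferase of ribosomal RNA, rose by 1.28 ± 0.14 and then by 1.71 ± 0.15. Sbds, which releases Eif6 from the new large subunit, fell by 0.47 and then by 0.53. The 2 comparisons share the TH-MYCN ganglia, so these pairs of values are not independent.

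Differences were also set beside the promoter features, as a description. Members whose first 5 transcribed bases were all C or T had a median difference of 0.15 between the ganglion groups (n = 17), and matched members without it 0.22 (n = 44). In primary spheres these medians were 1.20 and 1.18. The 6 members with CACGTG in the window had medians of 0.14 between the ganglion groups and 1.21 in primary spheres, and the 55 without it 0.22 and 1.18. With CCGGAAG the medians were 0.20 and 1.17 (n = 25), and without it 0.24 and 1.20 (n = 36). The 8 members with TATAAA had medians of 0.40 and 1.21, and the 53 without it 0.22 and 1.18. With 8 genes or fewer in the TATAAA and CACGTG sets, these medians rest on few members.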

How the data were processed

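RNA was labelled with Cy3 and hybridised to one-colour Agilent arrays. Per the labels' protocols, RNA integrity numbers were over 8, and 2 amounts of labelled RNA are named without the sample each belongs to. Per the file headers, Agilent Feature Extraction 11.5.1.1 gave the deposited intensity, background-subtracted and detrended within each array and not normalized between arrays; the deposited median intensity of spot and background served an alternative (normexp, offset 50). The authors' deposited value table holds log2 values: once each probe is centred, 99.9% match the values used here to within 0.05. This gives its scale and direction, while what the probes were centred on is unknown. Its column medians ran from -0.48 to -0.02 in wild-type ganglia, -0.39 to -0.11 in TH-MYCN ganglia, -0.08 to 0.07 in primary spheres and 0.15 to 0.51 in passaged spheres.

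Outlier and control spots were dropped, spots of a probe averaged, and log2 intensity minus the array's 75th percentile was taken. Probes were named through RefSeq accessions (GRCm38.p6). A probe was kept if well above background in at least 4 samples of a comparison, and the kept probe of highest mean stands for its gene. Groups were compared in pairs by limma 3.58.1 in R 4.3.3 (lmFit, eBayes, two-sided, Benjamini-Hochberg over all tested genes). The fit was tried on simulated data with independent noise for each gene. Members vary together within samples here, so that trial does not bear on the counts of members. The number of arrays limits precision. Members and lists were chosen with earlier results of these data known. Named genes are a panel (Rpsa, Rps6, Rps19, Rpl5, Rpl11, the stalk genes and the paralogs with their usual copies), plus per comparison the 5 largest rises and falls among called members that were well above background on every array of the group with more signal, and members called against the majority; Rps21, Rpl13a and Rps12 were named after their values were seen, as was the second-probe detail. The numbers of samples were not taken to pair them, because the labels name no shared litter or day. Same-numbered samples deviated together in 7 of 8 pairs of ganglia, with correlations from -0.02 to 0.37 over the 8 pairs. They did so in 1 of 8 pairs of TH-MYCN ganglia and primary spheres and in 2 of 4 pairs of spheres. Same-numbered ganglia of both genotypes were on the same slide, so number and slide go together here. The ganglia may thus share structure by number or by slide that the main fit leaves out. The part of the slide in this was not tested. With the number as a block, 47 members were higher in TH-MYCN ganglia in place of 30. Scaling, background, filter, probe choice, slide, replicate block and left-out samples were varied. The results of some members and of one comparison list are not reported here.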

Additional observations from a re-analysis of the deposited data

Results flagged for a closer look

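Within groups of 4 or 8 samples, 100 sets of values of named members and member medians were searched for a sample far from the others of its group, by Dixon's ratio of its gap to the whole range. Chance gives about 1 such set in 20, and 7 were found. Wild-type ganglion 1 was high in 3 of them: Rpsa read 7.85 there and 7.65 in the next sample, Rplp0 read 8.04 and 7.84, and Rpl22l1 read 7.49 and 6.92. TH-MYCN ganglion 4 was low in 2: Rpl11 read 7.24 there and 7.76 in the next sample, and Rpl3 read 6.08 and 6.55. Primary sphere 8 was high in 2: Rps27 read 8.86 there and 8.62 in the next, and Rpl28 read 7.38 and 7.19. Members of 1 sample share its array, so these values are not independent.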

How the results depend on the processing

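Alternatives added after seeing the data were no scaling, the lowest kept probe, leaving out each ganglion or primary sphere, fits within slides 3 and 4, and slide as a fixed with culture as a random block. Slide as a random block could not be run on averaged passaged cultures, each of which spans both slides. Of the named members and paralog pairs, 254 of 302 values for TH-MYCN against wild-type ganglia kept direction and side of the threshold, as did 276 of 298 for primary spheres against TH-MYCN ganglia and 399 of 408 on passage. In TH-MYCN against wild-type ganglia, members higher numbered 56 with quantile normalization, 63 (and 0 lower) with the median gene set to no difference, 47 with normexp, 79 (and 0 lower, median 0.69) unscaled, 5 within slide 1 and 50 within slide 2. Of all genes, 23.7%, 32.4%, 18.1%, 35.9%, 17.5% and 19.4% were higher in these fits, in that order. Rplp1 (0.40) and Rpl10 (0.36) turned positive unscaled, and Rpl22l1 stood at -0.0083 and was not called. In primary spheres against TH-MYCN ganglia, quantile normalization gave 1 lower, against 37.8% of all genes, and a median of 0.23, with Rpl10 at -0.12. The median gene set to no difference gave a median of 0.92. Unscaled values gave 10 higher and 2 lower, against 5.41% and 73.5% of all genes. Their median was 0.10, with Rpl22l1 at -0.056, Rpl39 at -0.081, Rpl10 at -0.19 and Rps4l at -0.89. On passage, 3 members were higher without a filter (Rpl3l, Rpl10l and Rpl39l, not well above background), 2 were lower with quantile normalization and 2 with the lowest probe, 0 were lower against primary spheres of slide 3 or slide 4 alone and within slide 3 or slide 4, and the unscaled median was -0.25. Of all genes, 19.1% were higher without a filter, and 7.49% and 6.59% were lower with quantile normalization and the lowest probe. Beyond the fewer samples in some fits, the cause was not tested. Leaving out 1 sample gave 28 to 50 members higher and 1 lower between ganglia (median 0.18 to 0.31), 81 higher and 0 lower in primary spheres (median 1.10 to 1.22), and 0 higher and 0 to 1 lower on passage (median -0.04 to 0.05).

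With replicate number as a block, 47 members were higher between the ganglion groups, 81 in primary spheres, and 0 were lower on passage. The shares of all genes in these fits were 23.1% higher, 50.1% higher and 5.28% lower. Of the 8, 8 and 4 pairs of same-numbered samples, 4, 1 and 3 correlated best with their own number. The number is not stated to mark a shared litter, animal or day, and same-numbered ganglia share a slide.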
